A study of Mus musculus with 8 samples.

Results

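The 9 genes described here encode subunits of the replicative DNA polymerases and of primase: Pola1, Pola2, Prim1, Prim2, Pold1, Pold2, Pold3, Pole and Pole2. They were chosen by name, out of 22380 protein-coding genes of the GENCODE M1 annotation, with earlier results of these data known. Their E2f3 and Myc binding sites were read from 8 deposited site lists. The lists come from ChIP-exo-seq, in which an exonuclease trims immunoprecipitated DNA back to the crosslinked protein, so that each site is given as a single base. The cells were intestinal crypt cells and intestinal villus cells of mice whose mixed background came from C57BL/6, 129 and FVB/N. Per the labels the mice were either wild type, called control here, or Rb KO, called Rb-deficient here, with Rb deleted by the inducible intestinal Cre Ah-cre. The labels do not say whether the control mice carried the Cre, and how many mice stand behind a list is not stated either. Both antibodies, against E2f3 and against Myc, were used on each of the 4 kinds of cells, with 1 library for each combination. The E2f3 lists held 32666 and 27396 sites in control and Rb-deficient crypt, and 7405 and 14843 in control and Rb-deficient villus, and the Myc lists 159181, 31397, 7223 and 4119 sites in the same order. With 1 library per group no difference has a replicate check and no p-value is given; the sequencing depth is unknown, and site lists hold no marker by which the cell type or the loss of Rb could be checked.

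DNA replication in animal cells is shared between 3 polymerases. DNA polymerase alpha, whose catalytic and accessory B subunits are encoded by Pola1 and Pola2, works with primase (Prim1 and Prim2) to lay down the short RNA-DNA primers that start every new strand. DNA polymerase delta (Pold1, Pold2, Pold3) extends the primers of the lagging strand, and DNA polymerase epsilon (Pole, Pole2) copies the leading strand and takes part in assembling the helicase. E2F factors bind promoters of genes needed in S phase, and the pocket protein Rb restrains them in cells that have left the cycle. In the intestine the dividing cells lie in the crypts, and villus cells are differentiated and no longer divide.

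The sequences under the sites come first, since most bases at which several libraries agreed fall on a short recurring word. The E2F motif searched was the 7-letter word TTNNCGC with C or G at each N, on either strand. Each window below has 29 bases of the mouse assembly NCBIM37 (mm9), read 5′ to 3′ on the strand of the gene. It is centred on the base shared by the largest number of E2f3 libraries, which was 2 in Pola1 and Pole. Where no base recurred, in Pola2 and Pole2, it is centred among the best sites. The Pole2 window holds the best sites of 3 libraries and leaves out that of control villus. Capitals mark the 7-letter word nearest to the centre, either the motif or its reverse complement, and where the strict motif is absent, the word that differs from it by 1 letter.
Pola1 (chrX:90877598-90877626, minus strand): aatgcactcccGCGGGAAggccgggggcg
Pola2 (chr19:5964158-5964186, minus strand): gcgcgctaggcaaagcgtTTGGCGGgttt
Prim1 (chr10:127452245-127452273, plus strand): ggcctgtcttgTTCCCGCcaattctcgtg
Prim2 (chr1:33726603-33726631, minus strand): ccaaatgaactCTCCCGCcactgggagag
Pold1 (chr7:51804129-51804157, minus strand): cgtatcttgtgGCGGGAAaagctgtttga
Pold2 (chr11:5778197-5778225, minus strand): cgcagagattgGCGGGATgcggcgtggcg
Pold3 (chr7:107269977-107270005, minus strand): agcgaagctgtTTCCCGCcggcgggagct
Pole (chr5:110715355-110715383, plus strand): ggagagcGCGCCAAattctccccggagcc
Pole2 (chr12:70329154-70329182, minus strand): ggggcgtcggcggtgGCGCCAAatcgcga

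The word is the same strict TTCCCGC in Pola1, Prim1, Pold1 and Pold3 and its strict variant TTGGCGC in Pole and Pole2. In Prim2, Pold2 and Pola2 it departs from the motif by T1C, T1A and C7G, counted from 1 at the 5′ end of the motif. All windows but that of Pola1 lie in the 5' UTR of their gene at the centre; the Pola1 window lies 118 bp upstream of the gene's 5′ end. A match is a description of the letters and not a measurement of binding. Positions had been shifted by 1 bp on this motif, and the word marked was the nearest to each centre. With up to 1 mismatch such a word occurred in 83.9% of all promoters. Its presence in every window is therefore not separate evidence.

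E2f3 was found at the promoters of nearly all of these genes in every kind of cell. A site within 1 kb of an annotated start was present at 7 of 9 genes in control crypt, at all 9 in Rb-deficient crypt, and at 8 in each villus library. The share of all protein-coding genes with such a site was 15.7%, 21.1%, 4.83% and 13.0% in the same order. Prim1, Prim2, Pola2, Pold1, Pold3 and Pole2 had a site in all 4 E2f3 libraries, which held for 3.64% of all genes. At least 3 libraries had a site at 8 members (9.48% of all genes), and at least 1 library at all 9 (25.3%). Pola1 and Pold2 had a site in 3 libraries and Pole in 2. Widening the window to 5 kb added no gene in any E2f3 library (7, 9, 8 and 8 genes, against 28.2%, 31.2%, 8.43% and 19.1% of all genes). The only further E2f3 site it brought was at Prim2 in control crypt, 1262 bp into the gene.

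**Figure D1:**
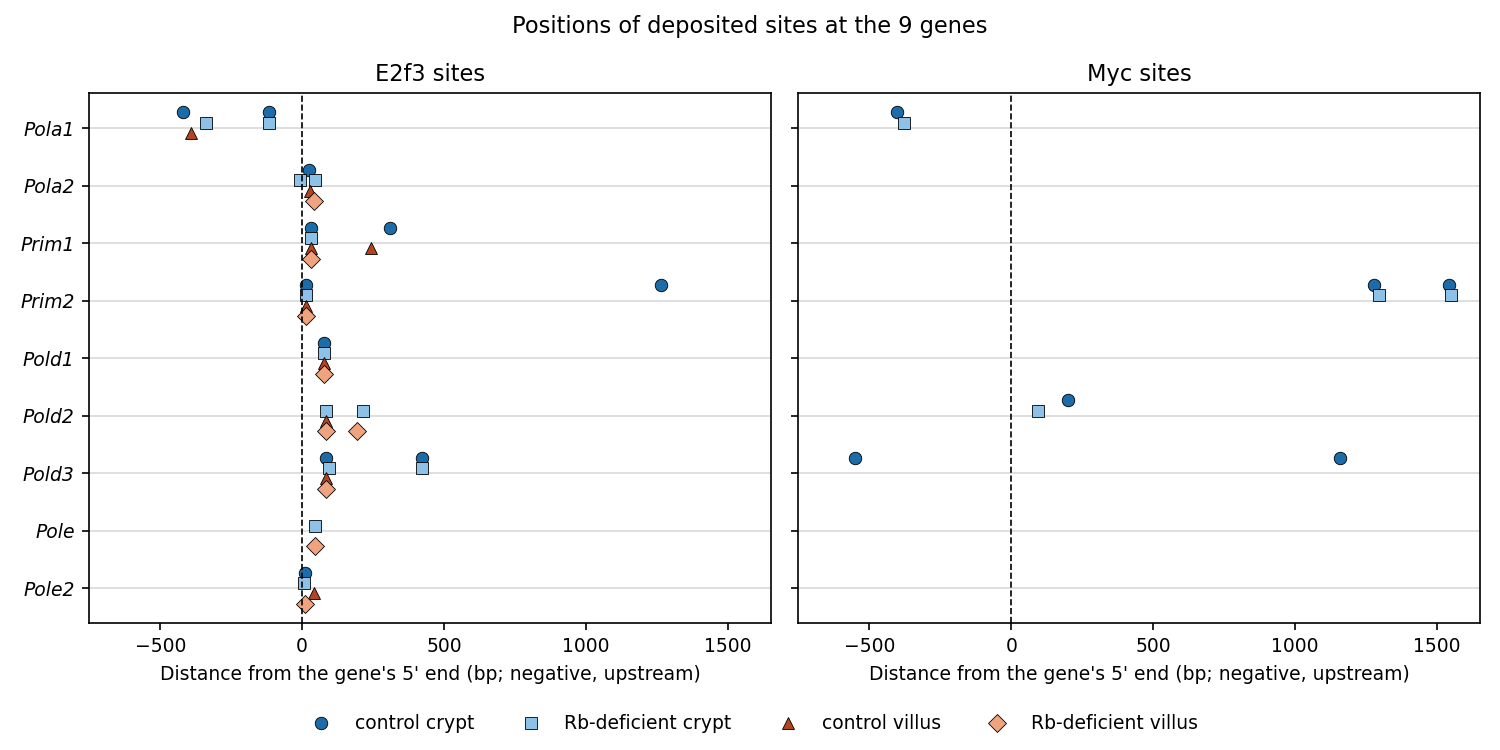
Positions of the deposited E2f3 sites (left) and Myc sites (right) at the 9 genes, in bp from the 5′ end of the gene along its strand (negative is upstream), with 1 marker for each site and 1 colour and marker shape for each kind of cells; sites outside the plotted range are not shown. E2f3 sites stack just downstream of the 5′ end in most genes, whereas Pola1 has its sites between 421 and 118 bp upstream and Myc sites appear in the crypt libraries only.

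The primase and polymerase alpha genes ranged from Prim1, with the highest-scored site of the members, to Pola1, whose best sites were spread over 303 bp. Each site carries a score in the deposited lists, whose meaning and scale are not stated, so scores are printed as deposited and compared by rank within a library, as the percentage of that library's sites with a lower score. In NCBIM37 with GENCODE M1 identifiers, Prim1 (ENSMUSG00000025395.7, chr10:127452228-127467093), the catalytic primase subunit, had its best site at the same base, position 127452259 on chromosome 10, in all 4 libraries. That site reached the score cap in both crypt libraries and scored 161.21 and 144.59 in control and Rb-deficient villus. These scores were above at least 99.2% of the sites of each library, and Prim1 was the top member in all 4. It also had weaker intronic sites, 308 bp from the 5′ end in control crypt (75.71) and 244 bp in control villus (23.62).

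Prim2 (ENSMUSG00000026134.9, chr1:33510656-33726631), the large primase subunit, also had its best site at the same base in all 4 libraries, 14 bp into the gene. It scored 34.2 and 56.54 in control and Rb-deficient crypt, and 7.63 and 18.65 in control and Rb-deficient villus, which put it above 86.2%, 93.4%, 44.7% and 83.5% of sites. The divergent gene 1700001G17Rik starts 71 bp from this site, so the same site counts for both genes. Pola2 (ENSMUSG00000024833.8, chr19:5940543-5964206), the B subunit of polymerase alpha, scored 99.07 and 34.3 in control and Rb-deficient crypt, and 55.25 and 37.44 in control and Rb-deficient villus. Its ranks were 97.6%, 86.7%, 96.6% and 94.1%, and it was the only member with a site in all 4 libraries that ranked higher in control than in Rb-deficient villus. Its positions did not coincide: the best sites lay 24, 44, 28 and 40 bp into the gene.

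Pola1 (ENSMUSG00000006678.5, chrX:90550106-90877494), the catalytic subunit of polymerase alpha, stood apart from the other members in where its sites lay. In control crypt a site scored 27.29 at 421 bp upstream and another 11.66 at 118 bp upstream. In Rb-deficient crypt the site at 118 bp upstream was the higher (24.08) and another lay 340 bp upstream (12.82). Control villus had a single site of 7.63 at 393 bp upstream, and Rb-deficient villus had none within 5 kb. The base at 118 bp upstream, used in both crypt libraries, is the centre of the TTCCCGC word shown above, and the promoter held 4 strict motifs between 250 bp upstream and 50 bp downstream of the start, more than any other member.

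The 3 polymerase delta genes differed in rank, and their main positions recurred. Pold3 (ENSMUSG00000030726.9, chr7:107230621-107270075), an accessory subunit, scored 192.52 and 233.34 in control and Rb-deficient crypt, and 42.17 and 119.21 in control and Rb-deficient villus, above 99.4%, 99.3%, 94.9% and 99.0% of sites. Its best site lay 84 bp into the gene in 3 libraries and 93 bp in Rb-deficient crypt. The latter is the centre of a neighbouring word with 1 mismatch, within the printed window. A weaker site 421 bp into the gene was listed in both crypt libraries (10.22 and 4.43).

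Pold1 (ENSMUSG00000038644.8, chr7:51788116-51804219), the catalytic subunit of polymerase delta, had a site at the same base in all 4 libraries, 76 bp into the gene, at the centre of the strict motif. It scored 112.58 and 161.81 in control and Rb-deficient crypt, and 16.05 and 53.63 in control and Rb-deficient villus, with ranks of 98.1%, 98.8%, 76.3% and 96.7%. Pold2 (ENSMUSG00000020471.5, chr11:5772183-5778295), the subunit that bridges the others, had no site in control crypt. It scored 25.26 in Rb-deficient crypt, and 11.46 and 13.25 in control and Rb-deficient villus, with ranks of 80.4%, 63.6% and 74.4%. The base 84 bp into Pold2 carried a site in each of these 3 libraries, although in Rb-deficient villus a site 192 bp into the gene scored higher than it (13.25 against 12.04).

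The polymerase epsilon genes were unlike each other. Pole2 (ENSMUSG00000020974.5, chr12:70302766-70329177), the B subunit of polymerase epsilon, scored 45.05 and 88.29 in control and Rb-deficient crypt, and 10.88 and 24.54 in control and Rb-deficient villus, above 90.6%, 96.8%, 61.5% and 88.9% of sites. The sites lay 9, 7 and 11 bp into the gene in both crypt libraries and Rb-deficient villus, and 40 bp into it, in a coding exon, in control villus. Pole (ENSMUSG00000007080.7, chr5:110715325-110766493), the catalytic subunit, had a site in the Rb-deficient libraries and none in either control library. It was low: 12.74 in crypt (rank 58.9%) and 3.21 in villus, where 12816 of the 14843 sites scored higher. Both lay at the same base, 44 bp into the gene and 164 bp from the start of the divergent gene Pxmp2, which encodes a peroxisomal membrane protein.

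**Figure D2:**
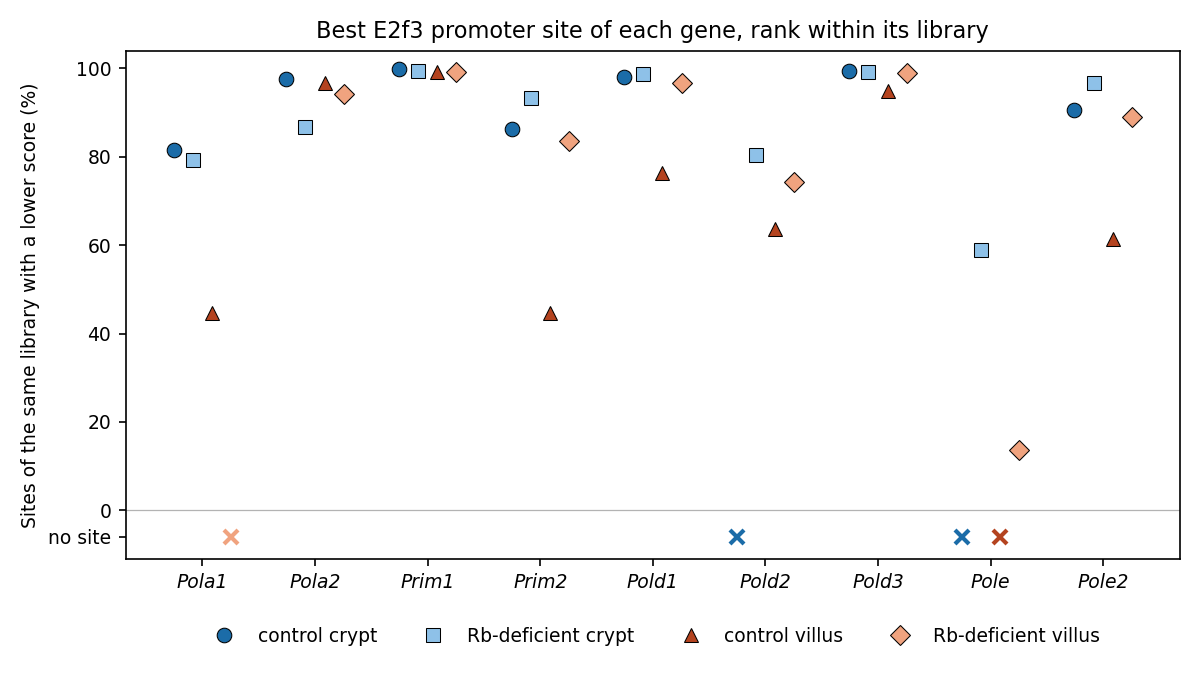
Rank of each gene's best E2f3 site within 1 kb of a start, as the percentage of sites of the same library with a lower score, for the 4 E2f3 libraries; crosses mark libraries without a site. Prim1 and Pold3 stay at or above 94.9% throughout, Prim2, Pold1 and Pole2 fall lowest in control villus, and Pole is absent from both control libraries.

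The comparison of Rb-deficient with control villus, the comparison named in the series' design text, showed few differences in which of these genes had a site. Of the 9 genes, 7 had an E2f3 site in both villus libraries, Pole in Rb-deficient villus only and Pola1 in control villus only. Among all genes with a site in either villus library, 29.1% had it in both, 65.0% in the Rb-deficient library alone and 5.93% in control villus alone. The 2 genes that differed were those with the lowest score of the members in the library that held them: Pola1 with 7.63, a score it shared with Prim2, and Pole with 3.21. When each E2f3 list was held to its 7405 highest-scored sites, the members with a site numbered 7 and 8 in control and Rb-deficient crypt, and 8 and 7 in control and Rb-deficient villus, against 5.14%, 7.82%, 4.83% and 7.33% of all genes. Pole was then absent from every list, so no member had a site in Rb-deficient villus alone.

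In crypts 7 genes had an E2f3 site in both genotypes, and Pold2 and Pole in Rb-deficient crypt only. Of genes with a site in either crypt library, 53.4% had it in both, 34.6% in Rb-deficient crypt only and 12.1% in control crypt only, a class that held no member. Between cell types, all 7 members with a site in control crypt also had one in control villus, where Pold2 had one in addition. Over all genes with a site in either of those libraries, 27.0% had it in both, 70.2% in crypt only and 2.81% in villus only. In Rb-deficient mice 8 members had a site in crypt and villus (49.7% of genes with a site in either) and Pola1 in crypt only (43.1%), while no member had one in villus only (7.18%). The lists differ in length, and at equal length Pold2 was still listed in Rb-deficient crypt and not in control crypt, Pola1 was still absent from Rb-deficient villus, and Pole was no longer listed in either Rb-deficient library.

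Taken over the members with a site, the median rank of the best E2f3 site was 97.6% and 93.4% in control and Rb-deficient crypt, and 70.0% and 91.5% in control and Rb-deficient villus. Prim1 ranked first among the members in each library. Of the 6 members with a site in all 4 libraries, 5 had their lowest rank in control villus, where Prim1 was 0.022 and Prim2 38.8 percentage points below Rb-deficient villus. The exception was Pola2, which ranked lowest in Rb-deficient crypt. A rank depends on which weaker sites a list contains, so a lower rank does not measure less binding.

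**Figure D3:**
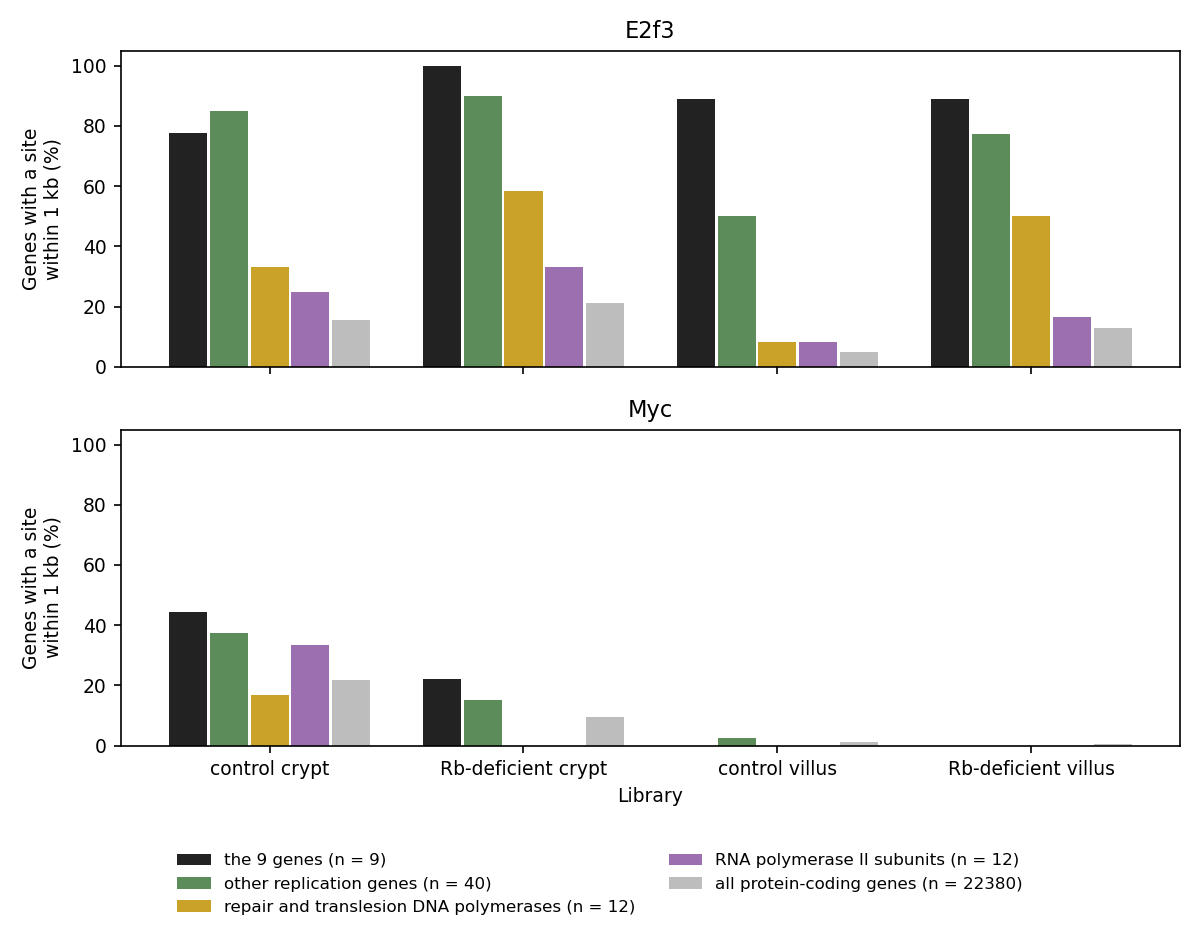
Percentage of genes with at least 1 site within 1 kb of a start, by library, for E2f3 (top) and Myc (bottom), for the 9 genes, 3 comparison lists and all protein-coding genes; bars start at 0. For E2f3 the 9 genes stand at 77.8% to 100% in all 4 libraries, while in control villus all protein-coding genes stand at 4.83%.

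Other genes of the replication machinery had E2f3 sites in most cases in crypts and less widely in control villus. Of 40 further replication genes (helicase, origin, clamp, clamp loader and fork proteins) 34 and 36 had an E2f3 site in control and Rb-deficient crypt, and 20 and 31 in control and Rb-deficient villus. Of the 32 of them with a site in either villus library, 12 had it in Rb-deficient villus only, where the 9 polymerase and primase genes had 1. Over all genes with a site in either villus library this class held 65.0%. The Rb-deficient villus list is the longer one, with 14843 sites against 7405. Polymerases of repair and translesion synthesis had 4, 7, 1 and 6 of 12 genes, the 1 in control villus being Mad2l2, the accessory subunit of polymerase zeta. RNA polymerase II subunits had 3, 4, 1 and 2 of 12, the 1 in control villus being Polr2a, the catalytic subunit. These are shares of 25.0%, 33.3%, 8.33% and 16.7%, where all protein-coding genes had 15.7%, 21.1%, 4.83% and 13.0%. Differences between these lists were not tested.

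The best E2f3 sites of the members lay close to the start of transcription. Of 36 possible pairs of gene and library, 32 had a site within 1 kb, and 28 of these best sites lay within 100 bp of the nearest annotated start. By library this was 6 of 7 in control crypt, 8 of 9 in Rb-deficient crypt and 7 of 8 in each villus library. For all genes with a site the share within 100 bp was 34.7%, 40.8%, 31.6% and 42.3%. The 4 exceptions were the 3 best sites of Pola1 and the intronic site of Pold2 in Rb-deficient villus. Relative to the 5′ end of the gene, 29 of the 32 lay downstream, and the 3 of Pola1 upstream.

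Most recurring positions lay on the E2F word. In 5 of 9 genes (Prim1, Prim2, Pold1, Pold3 and Pole) the best sites of all libraries that held one lay within 10 bp of each other, against 56.9% of all genes with a site in at least 2 libraries. Prim1, Prim2 and Pold1 agreed to the base in all 4 libraries, as did 49.4% of the 815 genes with a site in all 4. Pold3 was the further member with sites in all 4 libraries within 10 bp, which held for 58.0% of those genes. In these 3 genes, in Pold3 outside Rb-deficient crypt and at the recurring base of Pold2, the site was the exact centre of the word printed in capitals. At Pole it lay 4 bp from it, and at Pola2 and Pole2, whose positions were scattered over 20 and 33 bp, no best site lay on it exactly. All deposited positions had been shifted by 1 bp because of where this motif lay, so exact centring was partly set by that choice.

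Counted over libraries, the strict motif lay within 50 bp of 4 of 7 and 6 of 9 best sites in control and Rb-deficient crypt, and of 4 of 8 and 5 of 8 in control and Rb-deficient villus. For all genes with a site the shares were 38.4%, 33.9%, 57.8% and 38.4%. With up to 1 mismatch, 19 of the 32 best sites lay exactly on the centre of a word, or 4, 6, 5 and 4 by library, where all genes had 53.1%, 58.8%, 67.3% and 62.9%. Over the E2f3 lists, between 75.5% and 88.5% of sites with a strict motif within 50 bp lay on its centre. The 1 bp shift of positions was itself chosen on this motif. Whether the caller used sequence to place its events is not given in the sources used here. The motif counts were therefore not taken as separate evidence.

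**Figure D4:**
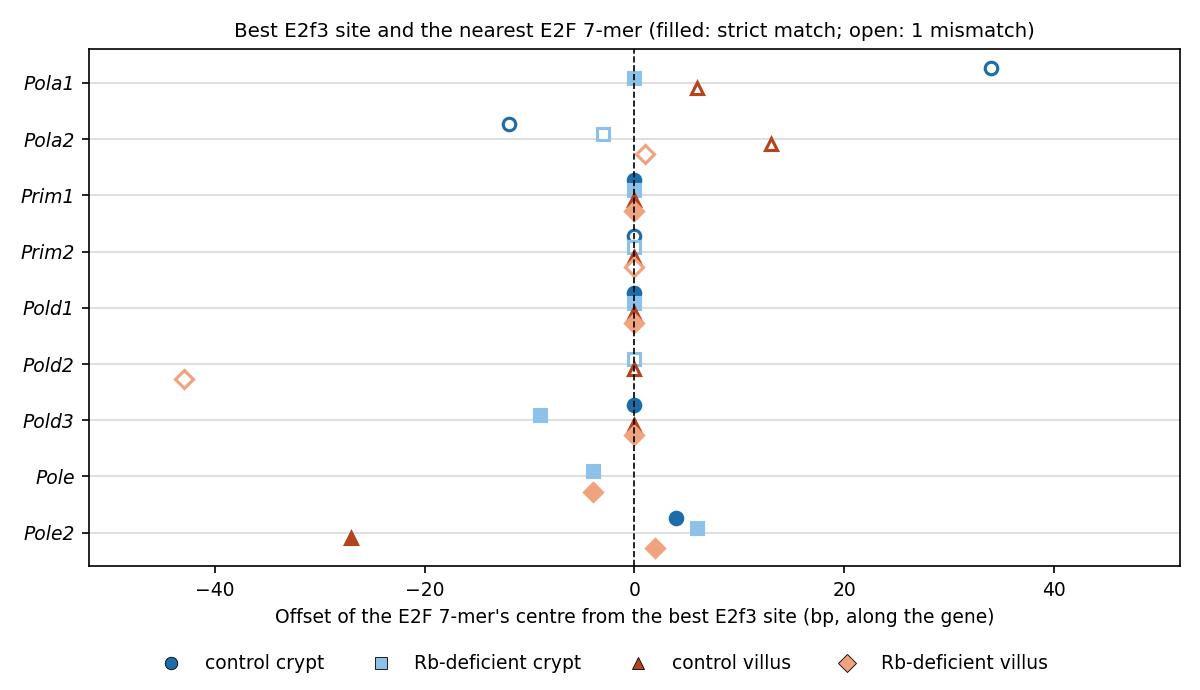
Offset in bp, along the strand of the gene, of the centre of the nearest E2F 7-letter word from each gene's best E2f3 site, for the 4 libraries; filled markers are strict matches within 50 bp and open markers the nearest word with 1 mismatch where no strict match lies that close. Prim1, Prim2 and Pold1 sit at 0 in all 4 libraries, while Pola2, Pole and Pole2 do not reach 0 in any.

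In promoter windows from 250 bases upstream to 50 downstream of the 5′ end, the strict motif occurred in 4 of the 9 genes (Pola1, Prim1, Pole and Pole2), against 11.4% of all 22380 genes. The words under the Pold1 and Pold3 sites fall beyond the downstream edge of that window. The word GGGCGG occurred in 8 of 9 genes (43.4% of all), CCAAT in 5 (37.9%), the E-box CACGTG in 2 (7.78%) and TTNGAA with C or T at N in none (17.8%). Both strands were searched and matches of different words may overlap. With up to 1 mismatch the E2F word was present in all 9, but also in 83.9% of all promoters.

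Myc, the growth-promoting factor that binds the E-box with Max, had sites near some of these genes in crypts and near none in villi. Within 1 kb of a start 4 genes had a Myc site in control crypt (Pola1, Pold2, Pold3 and Pole), 2 in Rb-deficient crypt (Pola1 and Pold2) and none in either villus library. All protein-coding genes had shares of 21.7%, 9.59%, 1.04% and 0.603%. The members had 44.4% in control and 22.2% in Rb-deficient crypt, which rest on 4 and 2 genes. In control crypt the 40 further replication genes had 37.5%. RNA polymerase II subunits had 33.3% there, and polymerases of repair and translesion synthesis 16.7%. In Rb-deficient crypt the further replication genes had 15.0%, and the other 2 lists had no gene with a site. These differences were not tested. At Pole the control crypt site (5.13) was 63 bp from the start of an internal transcript without coding sequence, 41376 bp from the 5′ end of the gene. At Pold3 the highest of its sites (35.0) was likewise intragenic, 28080 bp from the 5′ end, and a site of 6.25 lay 551 bp upstream. With starts of protein-coding transcripts only, the control crypt count was 3, without Pole.

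Set against each other, the crypt Myc libraries shared Pola1 and Pold2 (25.8% of genes with a Myc site in either), Pold3 and Pole had a site in control crypt only (61.4%) and no member in Rb-deficient crypt only (12.8%). In control crypt Pola1 and Pold3 had sites of both factors (24.6% of genes with a site of either), 5 members of E2f3 only (27.8%) and Pold2 and Pole of Myc only (47.5%). In Rb-deficient crypt Pola1 and Pold2 had both (21.5%), 7 members E2f3 only (62.1%) and none Myc only (16.4%).

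Of the members with promoter sites of both factors, Pola1 and Pold2 had them close together and Pold3 did not. At Pola1 the control crypt Myc site scored 176.73, above 97.2% of the sites of that library, and lay 402 bp upstream, 19 bp from the E2f3 site of the same cells. In Rb-deficient crypt the Myc site scored 9.54 (49.3%) and lay 39 bp from an E2f3 site. At Pold2 the Rb-deficient crypt Myc site (11.24) lay 9 bp from the recurring E2f3 site, and the control crypt Myc site (9.24) lay in an intron, 120 bp from the nearest start, in cells where no E2f3 site was listed for the gene. At Pold3 the nearest E2f3 and Myc sites in control crypt lay 635 bp apart. Among all genes with promoter sites of both factors, the nearest pair lay within 50 bp in 63.8% (control crypt) and 55.9% (Rb-deficient crypt). None of the best Myc sites of the members had an E-box in the 121 bases around it, which all genes with a Myc promoter site had in 4.40% (control crypt) and 28.3% (Rb-deficient crypt).

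Within 5 kb of a start 8 of 9 genes had a Myc site in control crypt, and 3 of 9 after Rb deletion, where all genes had 57.1% and 22.8%, and none had any in villus (4.47% of all genes in control and 2.68% in Rb-deficient villus). Pola2 was the gene without a Myc site in any library. At Pole the highest-scored control crypt Myc site within 5 kb (21.88) lay 1751 bp upstream of the 5′ end of the gene. Just beyond the 1 kb limit lay a control crypt Myc site of 16.21 in Pole, 1208 bp from an internal start, and a pair of sites in an intron of Prim2. In control crypt a Myc site of 93.27 lay 1278 bp into the gene, 16 bp from the E2f3 site at 1262 bp. In Rb-deficient crypt a Myc site of 3.2 lay 1295 bp into the gene and no E2f3 site was listed there. The site nearest to the limit on its inner side was the Pold3 site 551 bp upstream.

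The gene profiles most like that of the group were found by the mean absolute difference from the members' median rank over the 4 E2f3 libraries, counting a gene without a site as 0. The median profile was 90.6% and 93.4% in control and Rb-deficient crypt, and 63.6% and 88.9% in control and Rb-deficient villus. The 5 nearest genes that are no members were Ddc at a difference of 1.01 percentage points, Igsf8 at 1.57, Lmbr1 at 1.76, Bod1l at 2.03 and Zfp628 at 2.29. Pole2 was the nearest member at 1.38, and Pole (66.0), Pola1 (32.8) and Pold2 (29.5) were the farthest.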

How the data were processed

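The submitters' processing notes name Bowtie2 2.2.1, MACS2 2.0.10 and the build mm9. The file names describe GEM events overlapping MACS2 peaks in merged, duplicate-keeping data. What was merged, how GEM was set and how many reads there were is not given in the sources used here. Column 5 of the authors' files is a score between 2 and a cap, with no stated meaning or scale between lists.

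Positions were taken as counting from 0 and printed plus 1, since the E2F motif centre lay at a median of 1 bp from the deposited base in each E2f3 list. Genes came from GENCODE M1 on NCBIM37, with 70064 starts, all transcripts included. A gene's best site was its highest-scored site within 1 kb of a start. Assignment and motif search were tested on planted sites and words (Python 3.11.15, numpy 2.4.6, pysam 0.24.0).

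All 9 genes are named with their values; other genes named are promoter neighbours, the 5 most alike profiles and single exceptions in the comparison lists. The members and lists were chosen with earlier results of these data known. Alternatives changed the window, the starts, the list length, the score minimum, the coordinate base, the motif and the ranking.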

Additional observations from a re-analysis of the deposited data

Results flagged for a closer look

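For Pold3 the rank of the best E2f3 site changed by -0.0872 percentage points with Rb deficiency in crypt and by 4.13 in villus. The signs are opposite, but no direction is read from the crypt value. There, 209 of 32666 sites scored higher in control and 199 of 27396 in Rb-deficient crypt. Among best promoter sites the rank was 96.6% in control and 97.0% in Rb-deficient crypt. The difference was not tested, and each value compares 1 library with 1 other. For Prim1 the corresponding values were -0.242 in crypt and 0.022 in villus. Prim1 was at the score cap in both crypt libraries, with no site scored higher, so its crypt value reflects only how many sites share the cap and no direction is read from it.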

How the results depend on the processing

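Of 130 recomputed values, 109 stayed within the tolerance set for them and 21 moved. E2f3 counts per library stayed within 1.5 times under every window, start set, list length, score minimum and coordinate base tried. At the length of the shortest list (4119 sites) the E2f3 counts within 1 kb were 5 and 6 in control and Rb-deficient crypt. In control and Rb-deficient villus they were 8 and 7. The Myc counts at that length were 0 in both crypt libraries, within 1 kb and within 5 kb. That length keeps 4119 of the 159181 control crypt Myc sites. The shares of all genes at that length, or with scores of at least 10, are not given here, so these counts have no background beside them. With scores of at least 10, the Myc counts within 1 kb were 2 (control crypt) and 1 (Rb-deficient crypt), the latter also within 5 kb; with a window of 250 bp the Rb-deficient crypt count was 1. Members with an E2f3 site in Rb-deficient but not control villus were 0 at equal E2f3 list length. With scores of at least 10, members with an E2f3 site in crypt but not villus were 2 in either genotype. With up to 1 mismatch, the motif lay within 50 bp of 7 of 7 best sites in control crypt. The count was 8 of 8 in each villus library. Most genes with a site had such a word as well: 82.8% (control crypt), 86.1% (control villus) and 89.7% (Rb-deficient villus). These counts therefore do not set the members apart. Median ranks among best promoter sites were 92.1, 85.0, 62.1 and 83.2 in the order of the libraries given for list lengths; with absent members at 0 they were 90.6 (control crypt), 63.6 (control villus) and 88.9 (Rb-deficient villus). Shorter or stricter lists hold fewer sites, and the cause of these shifts was not tested. No paired analysis was possible because each group had 1 library. Unknown depth limits what the absence of a site says.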

Other observations

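The small accessory subunits of the same polymerases, which are not among the 9 genes, were split. Pole3 and Pole4, the histone-fold subunits of polymerase epsilon, had an E2f3 site within 1 kb in all 4 libraries, including both control libraries, in which the catalytic subunit gene Pole had none. Pold4, the smallest subunit of polymerase delta, had no E2f3 site within 1 kb in any library. Of the 3 genes, Pole3 and Pole4 had a Myc site within 1 kb in Rb-deficient crypt and none in the other 3 Myc libraries. In Rb-deficient crypt 9.59% of all protein-coding genes had a Myc site within 1 kb. There the count was 6 of 40 for the further replication genes. It was 0 of 12 for polymerases of repair and translesion synthesis and 0 of 12 for RNA polymerase II subunits. In control crypt, where 21.7% of all genes had such a site, the counts were 15 of 40, 2 of 12 and 4 of 12 in the same order. These differences between lists and libraries were not tested.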
